A study of Mus musculus with 48 samples.

Results

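Interferon-stimulated genes were followed in the livers of 48 mice that had eaten 1 of 20 combinations of diet composition and energy density. The set held 39 listed genes. Each was taken as its probe set with 1 gene symbol and the highest mean over all arrays, which gave 36 measured genes of 22180 in all. Ifi44 was not listed among the probe sets, and Ifi27l2a and Gbp2 were only on probe sets that carry several symbols. Mx1 and Trim30a fell below the filter on low values (a mean log2 value of 1.17), so that 34 of the 16926 genes tested were members. The filter used the mean over all mice and not that of a chosen diet, although diets with more mice weigh more in it.

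Mice of both sexes had free access to 1 of 25 diets from 3 weeks of age, were housed 3 to a cage and were harvested at 15 months. Each array measured the liver RNA of 1 mouse. A diet is written by its energy level and then its protein, carbohydrate and fat, each as a percent of the energy it supplies. The 10 mice on 5% protein ate High energy diets, 2 of them 5/20/75, 4 of them 5/48/48 and 4 of them 5/75/20. The other High energy mice, 19 in all, ate 14/29/57 (n = 4), 14/57/29 (n = 2), 23/38/38 (n = 3), 23/65/12 (n = 2), 33/20/47 (n = 2), 33/47/20 (n = 2), 42/29/29 (n = 1) or 60/20/20 (n = 3). Medium energy was given to 14 mice, on 14/29/57 (n = 1), 14/57/29 (n = 2), 23/38/38 (n = 3), 33/20/47 (n = 3), 33/47/20 (n = 2) or 42/29/29 (n = 3). Low energy was given to 5 mice, on 23/38/38 (n = 1), 42/29/29 (n = 1) or 60/20/20 (n = 3). No mouse on 5% protein ate a Medium or Low energy diet. The labels used here do not give the sex or the strain of each mouse, nor which mice shared a cage.

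Interferons are cytokines that cells release when they detect virus or bacteria. Type I interferons signal through kinases to a complex that holds Stat2 and Irf9 and binds the interferon-stimulated response element (ISRE) of antiviral genes such as the Ifit and Oas families. Interferon gamma acts through the gamma-activated site (GAS) and is the stronger inducer of the immunity-related and guanylate-binding GTPases (Iigp1, Irgm1, Irgm2, Igtp and the Gbp genes). Many genes answer both, so the division is one of degree. In liver, hepatocytes and Kupffer cells, the resident macrophages, both express such genes.

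1 mouse stood apart from the others before any diet comparison. The only Medium energy 14/29/57 mouse was the highest of the 48 in 11 of 11 Kupffer cell and macrophage markers, and their summed level was 14.25 on the log2 scale in it, against 9.02 to 11.76 in the other 47 mice. It was also the highest in 6 of 6 monocyte and neutrophil markers, with a summed level of 11.15 against 4.25 to 6.33, and the lowest in 4 of 8 hepatocyte markers, with a summed level of 14.56 against 15.05 to 15.36. Of 10 T and NK cell markers it was the highest in 6 and the lowest in 0. Of 6 endothelial markers it was the highest in 3 and the lowest in 1, and of 6 stellate markers the highest in 1 and the lowest in 1. It was the highest in 0 of 5 dendritic cell and 0 of 4 B cell markers. The hepatocyte gene Alb, albumin, was at 12.88 in this mouse and between 12.63 and 13.06 in the others. In the same mouse Cyp2e1, a drug-metabolising enzyme, was at 9.30, against 12.34 to 12.87, Hnf4a, a hepatocyte transcription factor, at 8.45, against 9.48 to 10.86, and Ttr, transthyretin, at 11.91, against 12.63 to 12.99. Results that rest on the Medium energy 14/29/57 mouse are given with and without it. The arrays also differed in spread. The interquartile range of log2 values over an array averaged 3.48 ± 0.13 on 5% protein (SD, n = 10), against 3.18 ± 0.21 in the High energy mice on 14% protein or more (SD, n = 19). The main comparisons are therefore also given with that range as a term in the model. In liver tissue as a whole, fewer cells of a type and less RNA per cell cannot be told apart.

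The stretches of promoter before the start of members that the comparisons turn on are shown first, because the type I and gamma pathways are known for different promoter elements. The sequences are RefSeq's on GRCm38.p6, 5′ to 3′ on the strand of the gene, and end at the base before the annotated start. Capitals mark the ISRE core or the GAS on either strand. The ISRE core was searched as GAAA, any pair of bases and GAAA, which reads TTTC, any pair of bases and TTTC on the other strand. The GAS was searched as TTCNNNGAA, which reads the same on both strands, and no match of one overlaps a match of the other in the stretches shown. The Ifit1 stretch (chr19:34640769-34640888, plus strand) is shown as the Ifit example with a pair of ISRE cores.
Ifit1: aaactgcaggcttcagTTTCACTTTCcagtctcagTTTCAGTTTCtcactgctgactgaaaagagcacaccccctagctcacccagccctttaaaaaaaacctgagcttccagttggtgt
Rsad2, the antiviral enzyme viperin, has 1 ISRE core in its stretch (chr12:26456453-26456582, minus strand).
Rsad2: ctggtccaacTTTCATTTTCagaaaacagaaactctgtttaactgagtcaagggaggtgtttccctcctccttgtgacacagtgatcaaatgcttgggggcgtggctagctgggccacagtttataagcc
Stat2, itself a part of the complex that binds the ISRE, has 1 core far from its start (chr10:128270268-128270497, plus strand).
Stat2: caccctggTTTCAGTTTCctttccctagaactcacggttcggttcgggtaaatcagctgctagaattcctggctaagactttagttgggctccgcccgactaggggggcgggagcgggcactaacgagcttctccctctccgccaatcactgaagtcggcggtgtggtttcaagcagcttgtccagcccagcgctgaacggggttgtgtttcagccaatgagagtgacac
Ifit2 has 1 GAS and no ISRE core in its stretch (chr19:34550444-34550693, plus strand).
Ifit2: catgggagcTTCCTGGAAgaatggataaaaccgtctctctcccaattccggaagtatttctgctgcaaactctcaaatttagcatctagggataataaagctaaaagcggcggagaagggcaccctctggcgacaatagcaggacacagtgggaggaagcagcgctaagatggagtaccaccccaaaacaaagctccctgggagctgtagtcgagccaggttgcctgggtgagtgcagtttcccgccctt
Oasl2 has neither motif in its stretch (chr5:114896834-114896933, plus strand), and is shown because it was among the largest differences at 5% protein.
Oasl2: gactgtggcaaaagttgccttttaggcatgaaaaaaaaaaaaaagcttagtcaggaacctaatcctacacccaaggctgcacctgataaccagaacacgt
Irf9, the subunit of the type I complex that reads the ISRE, has neither motif in its stretch (chr14:55603885-55603984, plus strand).
Irf9: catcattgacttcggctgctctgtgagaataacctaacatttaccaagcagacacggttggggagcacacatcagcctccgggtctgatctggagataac
Ddx58 has neither motif in the bases before its start (chr4:40239826-40239925, minus strand), although an ISRE core lies just after it.
Ddx58: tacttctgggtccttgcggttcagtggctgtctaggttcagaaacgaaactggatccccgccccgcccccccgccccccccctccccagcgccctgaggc

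The gamma-type genes Irgm2 and Igtp, neighbours on chromosome 11, share a GAS followed by an ISRE core. The Irgm2 stretch lies at chr11:58214877-58214976 and the Igtp stretch at chr11:58199456-58199555, both on the plus strand.
Irgm2: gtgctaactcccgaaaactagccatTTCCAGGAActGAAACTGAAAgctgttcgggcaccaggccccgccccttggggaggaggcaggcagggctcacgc
Igtp: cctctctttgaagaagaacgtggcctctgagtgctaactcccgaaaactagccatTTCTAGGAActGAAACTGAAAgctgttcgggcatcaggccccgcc
The distance from the first base of the GAS to the first base of the ISRE core was 11 bases in both. Aligned on that core without gaps, 184 of 270 bases of their windows were the same (68.1%). Gbp7, a guanylate-binding GTPase, has a pair of GAS and 1 ISRE core (chr3:142530216-142530335, plus strand).
Gbp7: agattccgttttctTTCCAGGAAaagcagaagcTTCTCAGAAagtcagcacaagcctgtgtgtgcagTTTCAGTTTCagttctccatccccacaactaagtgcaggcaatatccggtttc
Windows of 250 bases before to 50 bases after the start were given for 29 of the 39 members. The ISRE core was in a window of 17 of them (58.6%), against 3.99% of all 27025 genes with a window. The GAS was in 9 of them (31.0%), against 9.55% of all genes. Of the gamma-type genes with a window (Irgm1, Irgm2, Igtp, Gbp2, Gbp3 and Gbp7, of which Gbp2 was not measured) 6 of 6 had an ISRE core and 3 of 6 a GAS, and among the Ifit and Oas genes 3 of 6 had an ISRE core and 1 of 6 a GAS. Of the members that were higher at 5% protein, 5 of the 8 with a window had an ISRE core, as had 10 of the 18 other tested members with one. A match describes the letters only.

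The protein comparison asked how the members changed as protein replaced carbohydrate and fat. The slope gives the change in log2 level when protein gains 10 points of the energy, at the equal expense of carbohydrate and fat, from a limma model over all 48 mice with the carbohydrate-for-fat exchange and energy level as the other terms. A gene was called at an adjusted p under 0.05 (Benjamini-Hochberg over all 16926 genes). Of the 34 tested members 6 fell with the protein share, beside 3.65% of all genes that fell. None rose, beside 3.37% of all genes, and 7.01% of all genes were called in either direction. The 6 were Ifi27l2b, Oas2, Oasl2, Ifit2 and Parp14 among the antiviral effectors and Iigp1 among the GTPases. The slope was below 0 for 30 of the 34, against 51.2% of all genes, with a median of -0.06 against -0.00 over all genes. Of these calls, those of Ifi27l2b and Iigp1 remained when the model also held each array's interquartile range, and that of Ifi27l2b alone when the diet combination was a random block.

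Ifi27l2b encodes a small membrane protein of an interferon-induced family. Its lowest, median and highest log2 levels were 4.13, 5.16 and 5.57 on 5% protein, 4.25, 4.79 and 5.96 on 14%, 2.49, 3.82 and 5.98 on 23%, 2.74, 4.53 and 5.78 on 33%, and 1.87, 2.76 and 6.66 on 60%. The 5 mice on 42% protein had 2.79, 2.80, 4.16, 5.68 and 5.95. All mice on 5% and 14% protein lay above 4, whereas the mice on 23% protein or more ran from below 3 to the top of the range, so the shares overlapped. Its slope was -0.47 ± 0.08 (SE, adjusted p = 0.000451, limma). The highest level of all mice, 6.66, was in 1 of the 3 Low energy 60/20/20 mice, whose others had 2.08 and 2.86, and the remaining Low energy mice had 5.98 on 23/38/38 and 5.68 on 42/29/29. With the interquartile range as a term the slope was -0.44 ± 0.09 (adjusted p = 0.00768, limma), and without the Medium energy 14/29/57 mouse it was -0.49 ± 0.08 (adjusted p = 0.000293, limma).

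Oas2 makes the oligoadenylates that switch on RNase L. Its lowest, median and highest log2 levels were 2.81, 3.70 and 4.98 on 5% protein, 2.59, 3.37 and 5.96 on 14%, 2.42, 2.81 and 3.41 on 23%, 1.99, 2.60 and 3.62 on 33%, and 1.88, 2.44 and 3.48 on 60%. The 5 mice on 42% protein had 2.76, 3.16, 3.50, 3.70 and 4.70, which is higher at the median than on 23% or 33%. The order of the shares was therefore not even, and all neighbouring shares overlapped. The top value, 5.96, was the Medium energy 14/29/57 mouse. The slope was -0.23 ± 0.07 (SE, adjusted p = 0.0392, limma), and -0.20 ± 0.07 (adjusted p = 0.0528) without that mouse.

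Oasl2, an interferon-induced relative of the Oas enzymes that is shown above with neither motif, had lowest, median and highest log2 levels of 3.78, 4.37 and 5.29 on 5% protein, 3.08, 4.31 and 6.25 on 14%, 1.95, 3.61 and 4.43 on 23%, 2.55, 3.55 and 4.60 on 33%, and 2.62, 3.46 and 4.36 on 60%. On 42% protein it had 2.51, 3.96, 4.33, 4.45 and 4.80. The medians were higher at 5%, 14% and 42% and lower at 23%, 33% and 60%, so they did not fall evenly with the share. Its slope was -0.22 ± 0.07 (SE, adjusted p = 0.0408, limma), and -0.20 ± 0.07 (adjusted p = 0.0575) without the Medium energy 14/29/57 mouse, which held its highest value. The mouse on High energy 42/29/29 had the 2.51.

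Ifit2, which binds RNA and blocks viral translation, was near the low end of the measured range. Its lowest, median and highest log2 levels were 1.98, 2.71 and 3.29 on 5% protein, 1.71, 2.09 and 4.40 on 14%, 1.53, 2.08 and 2.81 on 23%, 1.56, 2.05 and 2.79 on 33%, and 1.75, 1.94 and 2.38 on 60%, and the 42% mice had 2.01, 2.05, 2.57, 2.63 and 2.83. From 14% protein upward its medians differed little apart from 42%. The slope was -0.14 ± 0.04 (SE, adjusted p = 0.0490, limma), and it was -0.11 ± 0.04 (adjusted p = 0.0615) without the Medium energy 14/29/57 mouse, whose 4.40 was its highest value.

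Parp14, a mono-ADP-ribosyltransferase of the interferon response, had lowest, median and highest log2 levels of 6.25, 6.89 and 7.27 on 5% protein, 6.26, 6.68 and 7.71 on 14%, 5.37, 6.35 and 6.90 on 23%, 5.66, 6.31 and 6.75 on 33%, and 5.77, 6.16 and 6.85 on 60%. On 42% protein it had 5.28, 6.46, 6.59, 6.93 and 6.98. All shares overlapped. Its slope was -0.14 ± 0.04 (SE, adjusted p = 0.0429, limma), and -0.14 ± 0.04 (adjusted p = 0.0419) without the Medium energy 14/29/57 mouse, which at 6.64 was near the middle. With the interquartile range as a term the slope was -0.04 ± 0.03 (adjusted p = 0.714).

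Iigp1 is an immunity-related GTPase that breaks up the vacuoles of intracellular parasites. Its lowest, median and highest log2 levels were 9.91, 10.33 and 10.66 on 5% protein, 9.50, 9.98 and 10.46 on 14%, 9.88, 10.03 and 10.32 on 23%, 8.97, 10.04 and 10.37 on 33%, and 9.19, 9.76 and 10.16 on 60%. On 42% protein it had 9.89, 9.97, 10.06, 10.37 and 10.51, so the ends of the range differed while the shares between them were close at the median. The slope was -0.09 ± 0.03 (SE, adjusted p = 0.0399, limma). It was -0.12 ± 0.03 (adjusted p = 0.0383) with the interquartile range as a term and -0.10 ± 0.03 (adjusted p = 0.0148) without the Medium energy 14/29/57 mouse.

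**Figure D1:**
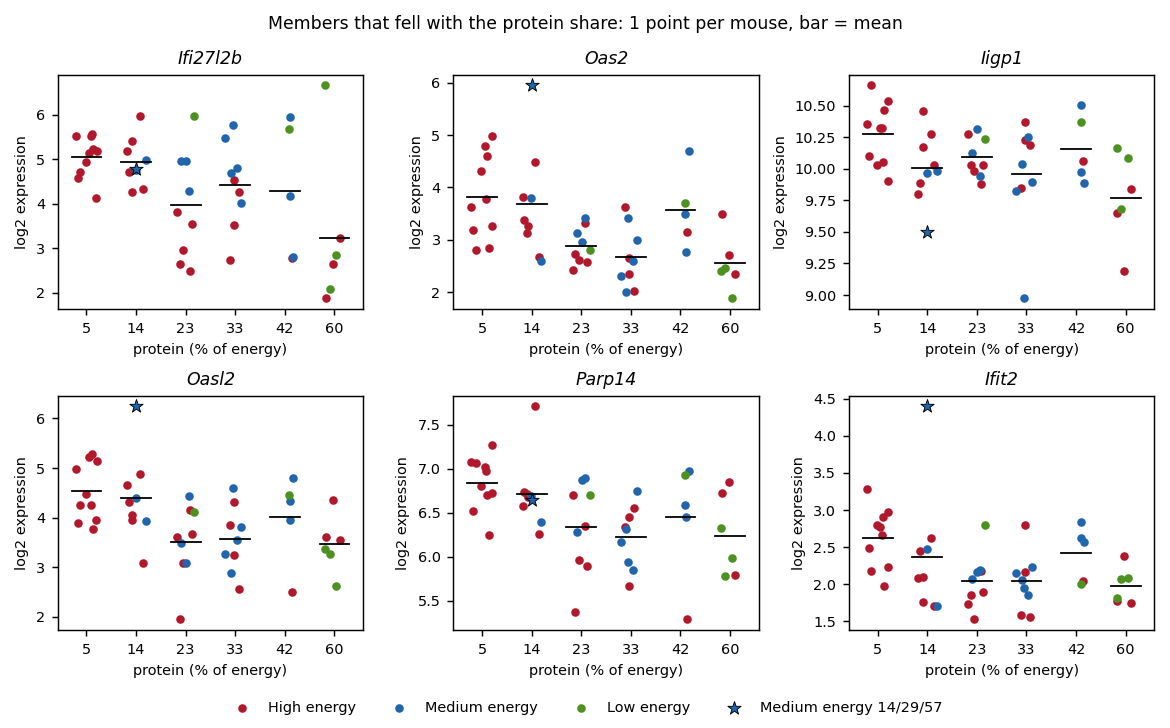
Log2 expression (vertical axes) of the 6 members that fell with the protein share, against the percent of energy from protein (horizontal axes). Each point is 1 mouse coloured by energy level, bars are means over a share, and the star is the Medium energy 14/29/57 mouse, which is the highest point for Oas2, Oasl2 and Ifit2 and the third lowest for Iigp1.

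The 28 other tested members did not pass the threshold. Ddx58, which encodes the RNA sensor RIG-I, had a slope of -0.11 ± 0.04 (adjusted p = 0.0643, limma), Stat2 had -0.12 ± 0.04 (adjusted p = 0.0780), and Xaf1, a factor that opposes an inhibitor of apoptosis, had -0.11 ± 0.04 (adjusted p = 0.111). The slopes above 0 were those of Bst2, the membrane protein tetherin (0.03 ± 0.03, adjusted p = 0.431), Ifit3 (0.03 ± 0.04, adjusted p = 0.620), Gbp3 (0.02 ± 0.06, adjusted p = 0.837) and Ifi35 (0.02 ± 0.03, adjusted p = 0.662). By role, 5 of 18 antiviral effectors, 0 of 3 RNA sensors, 0 of 5 transcription factors, 1 of 6 GTPases and 0 of 2 genes of antigen transport and chemokines fell. Of antigen transport and chemokines, the peptide transporter Tap1 had -0.11 ± 0.05 (adjusted p = 0.173) and the chemokine Cxcl10 had -0.03 ± 0.05 (adjusted p = 0.733).

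Ifit and Oas genes and gamma-type genes had similar slopes at the median. The median slope was -0.09 over the 7 Ifit and Oas genes, of which Oas2, Oasl2 and Ifit2 fell, and -0.08 over the 6 gamma-type genes, of which Iigp1 fell. Without the Medium energy 14/29/57 mouse the medians were -0.08 over the Ifit and Oas genes and -0.09 over the gamma-type genes, and 0 of 7 Ifit and Oas genes were called. With the interquartile range as a term they were -0.05 over the Ifit and Oas genes and -0.01 over the gamma-type genes. Without the mouse 3 of the 34 members, Ifi27l2b, Iigp1 and Parp14, fell, beside 4.16% of all genes. With the interquartile range as a term 2 of 34 fell, beside 0.219% of all genes, and the median slope over the members was -0.02. Whether the spread of the arrays followed the diet or the handling of the RNA was not tested.

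**Figure D2:**
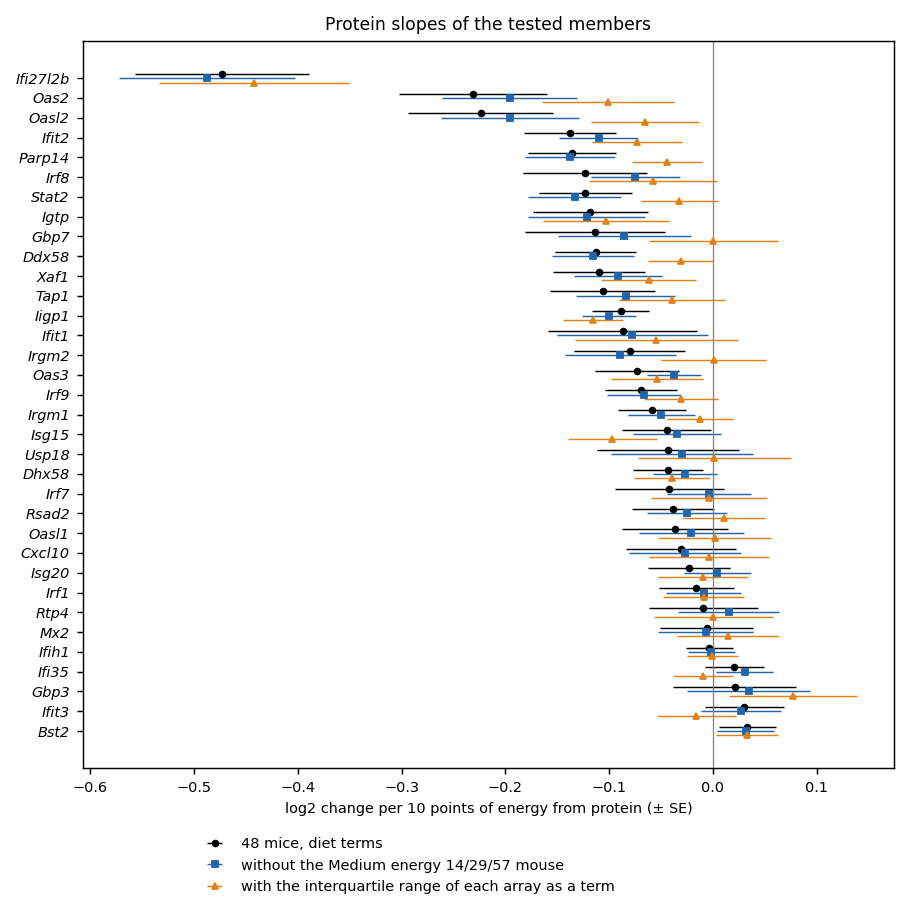
Protein slope of each of the 34 tested members as the log2 change for 10 points of energy from protein (horizontal axis, ± SE), from all 48 mice, without the Medium energy 14/29/57 mouse, and with each array's interquartile range in the model. Most slopes lie below 0, and Ifi27l2b lies farthest from 0 in all 3 fits; the median over members is -0.06 in the first fit and -0.02 with the interquartile range.

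A fit was also made without the mice on 5% protein. Among the 38 mice on 14% protein or more, 0 of 34 members were called, beside 0.0827% of all genes, although the median slope over the members was again -0.06. That fit was chosen after seeing the data. The call of Ifi27l2b remained when any 1 mouse was left out. Those of the other 5 did not, and the count of members called ranged from 1 to 8 as each mouse was left out in turn.

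A step at the lowest protein share was compared within the High energy diets, as the mean of the 3 diets on 5% protein minus the mean of the other 8. Of the 34 tested members 13 were higher on 5% protein, beside 18.4% of all genes that were higher, and 0 were lower, beside 11.6% of all genes. In all, 30.0% of all genes were called, so the step was wide and the members' share of 38.2% is to be read against it. The median difference over the members was 0.29 on the log2 scale, against -0.01 over all genes. The 13 were Ifit2, Oasl2, Parp14, Ifi27l2b, Oas2, Usp18 and Rsad2 among the antiviral effectors, Irgm2, Igtp and Iigp1 among the GTPases, Stat2 and Irf9 among the transcription factors, and Ddx58 among the sensors. With the interquartile range as a term 0 of 34 were called, beside 1.01% of all genes, and the median was 0.11. This comparison shares mice with the protein slope, so the values of both are given side by side and not as separate evidence.

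Among the antiviral effectors, Ifit2 had lowest, median and highest log2 levels of 1.98, 2.71 and 3.29 on 5% protein, against 1.53, 1.90 and 2.79 in the other High energy mice, a difference of 0.66 ± 0.13 (SE, adjusted p = 0.00110, limma). Oasl2 had 3.78, 4.37 and 5.29 on 5% protein, against 1.95, 3.67 and 4.88, a difference of 1.04 ± 0.23 (adjusted p = 0.00223). For both genes all 10 mice on 5% protein lay above the median of the 19 others, and 4 of the 10 lay above the highest of them. Oas2 had 2.81, 3.70 and 4.98 on 5% protein, against 2.02, 2.73 and 4.49, a difference of 0.99 ± 0.25 (adjusted p = 0.00570), with 3 of 10 above the highest of the others.

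Ifi27l2b had the largest difference, 1.48 ± 0.37 on the log2 scale or 2.78-fold (adjusted p = 0.00486, limma), from lowest, median and highest levels of 4.13, 5.16 and 5.57 on 5% protein, against 1.87, 3.55 and 5.96. The mice on 5% protein were within the range of the others but all above its median. Parp14 had 6.25, 6.89 and 7.27 on 5% protein, against 5.28, 6.46 and 7.71, a difference of 0.66 ± 0.16 (adjusted p = 0.00363). Usp18, the protease that strips Isg15 from proteins and damps the type I receptor, had 5.58, 6.30 and 7.04 on 5% protein, against 4.49, 5.76 and 7.03, a difference of 0.73 ± 0.21 (adjusted p = 0.0116). Its protein slope was only -0.04 ± 0.07 (adjusted p = 0.707). Rsad2 had 3.94, 4.36 and 5.19 on 5% protein, against 3.19, 4.37 and 4.94, and its difference of 0.32 ± 0.12 (adjusted p = 0.0494) gives each diet the same weight. Its medians over mice were alike, and 5 of 10 mice on 5% protein were above the median of the others. Without 1 High energy 5/20/75 mouse (replicate 2) the difference was 0.11 (adjusted p = 0.531), without the High energy 42/29/29 mouse it was 0.19 (adjusted p = 0.271), and the call was lost in 30 of 48 fits that each left out 1 mouse.

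Among the GTPases, Irgm2, which guards membranes against the other GTPases of its family, had lowest, median and highest levels of 6.19, 6.91 and 7.98 on 5% protein, against 4.97, 6.60 and 7.62, a difference of 0.67 ± 0.19 (adjusted p = 0.0103, limma). Igtp, also called Irgm3, had 5.82, 6.46 and 8.39 on 5% protein, against 5.26, 6.20 and 7.12, a difference of 0.60 ± 0.21 (adjusted p = 0.0290). The same mouse, on High energy 5/48/48 (replicate 2), had the highest value of both genes. Without it the difference for Igtp was 0.45 (adjusted p = 0.0549, limma). The call of Igtp was lost in 5 of 48 fits that each left out 1 mouse. That of Irgm2 was lost in 1, the fit without the High energy 42/29/29 mouse (0.48, adjusted p = 0.0729). Iigp1 had 9.91, 10.33 and 10.66 on 5% protein, against 9.19, 10.03 and 10.46, a difference of 0.28 ± 0.11 (adjusted p = 0.0464), and its call was lost in 24 of 48 fits that each left out 1 mouse. For each of these 3 genes 8 of 10 mice on 5% protein were above the median of the others.

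Of the factors and sensors, Stat2 had 6.56, 6.85 and 7.33 on 5% protein, against 4.91, 6.68 and 7.22, a difference of 0.53 ± 0.16 (adjusted p = 0.0146, limma). Irf9 had 6.31, 6.69 and 6.92 on 5% protein, against 5.39, 6.47 and 7.37, a difference of 0.32 ± 0.12 (adjusted p = 0.0393). In both genes the groups differed more at the low end than at the top, since the other High energy mice reached below every mouse on 5% protein. The lowest value of both genes was that of the only High energy 42/29/29 mouse, whose array had the smallest interquartile range. Without it the difference was 0.32 for Stat2 (adjusted p = 0.140) and 0.18 for Irf9 (adjusted p = 0.268), and neither was called. Ddx58 had 5.98, 6.32 and 6.84 on 5% protein, against 4.97, 5.99 and 6.87, a difference of 0.49 ± 0.16 (adjusted p = 0.0194), which was -0.037 (adjusted p = 0.958) with the interquartile range as a term. Without the High energy 42/29/29 mouse the difference for Ddx58 was 0.37 (adjusted p = 0.0846, limma). Its call was lost in 2 of 48 fits that each left out 1 mouse.

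**Figure D3:**
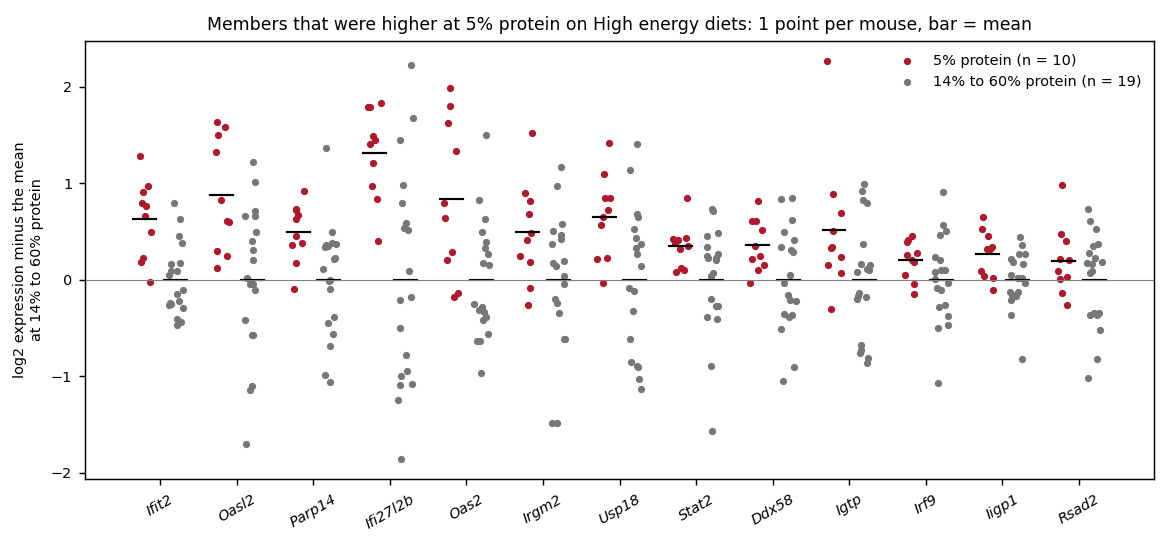
Log2 expression of the 13 members that were higher on 5% protein, as the difference from the mean of the High energy mice on 14% to 60% protein (vertical axis). Points are single mice, 10 on 5% protein (red, left of each pair) and 19 on 14% to 60% protein (grey, right), and bars are means over mice; the mean of the red points is above 0 for each gene while the 2 sets of points overlap.

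The members that stayed below the threshold included Gbp7, with a difference of 0.54 ± 0.21 (adjusted p = 0.0535, limma), and Irf8, a factor of macrophage and dendritic cell development, with 0.37 ± 0.15 (adjusted p = 0.0579). A further Irf8 probe set, which was not the one used, was near the low end with a mean of 1.44 and had a difference of -0.04. Several classical interferon targets showed differences near 0. Isg15, the ubiquitin-like tag, had -0.04 ± 0.19 (adjusted p = 0.872), Ifit1 had 0.05 ± 0.20 (adjusted p = 0.873), Irf7, the main factor for making type I interferon, had -0.01 ± 0.14 (adjusted p = 0.955), and Dhx58, the sensor LGP2, had -0.00 ± 0.13 (adjusted p = 0.993). The members thus did not move as 1 block: at 5% protein the fitted differences of the 34 ran from -0.22 for Ifi35 and Rtp4 to 1.48 for Ifi27l2b.

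The 3 diets on 5% protein were also set alone against the other High energy diets, a split chosen after seeing the data. On 5/20/75 (n = 2) 0 of 34 members were called, beside 1.97% of all genes, with a median difference of 0.42. On 5/48/48 (n = 4) 7 of 34 were higher, beside 4.62% of all genes that were higher, with a median of 0.26. These were Oasl2 (1.42, adjusted p = 0.00547), Ifit2 (0.79, adjusted p = 0.00801), Igtp (0.996, adjusted p = 0.0267), Parp14 (0.74, adjusted p = 0.0292), Irgm2 (0.88, adjusted p = 0.0312), Ifi27l2b (1.61, adjusted p = 0.0407) and Irf8 (0.64, adjusted p = 0.0491) by limma. On 5/75/20 (n = 4) 0 of 34 were called, beside 0.372% of all genes, with a median of 0.10. The differences between these 3 diets were not tested.

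Markers of other cells are set here beside the 18.4% of all genes that were higher on 5% protein. Of the stellate cell markers 5 of 6 were higher on 5% protein, of the endothelial markers 3 of 6, of the T and NK cell markers 3 of 10 (Prf1, Cd3e and Cd3g), and of the Kupffer cell and macrophage markers 2 of 11 (Cd68 and Csf1r), all by limma at an adjusted p under 0.05. None of these markers was called with the interquartile range as a term. The summed level of the Kupffer and macrophage markers ran from 9.02 to 10.92 on 5% protein, against 9.03 to 11.76 in the other High energy mice, and that of the stellate markers from 10.33 to 11.18 against 9.54 to 10.66. The summed level of the T and NK markers ran from 5.43 to 7.07 on 5% protein, against 5.38 to 6.58. The monocyte and neutrophil markers, with 0 of 6 called, ran from 4.51 to 5.59 against 4.25 to 6.33, the hepatocyte markers from 15.05 to 15.25 against 15.09 to 15.32, the endothelial markers from 9.52 to 10.62 against 8.76 to 10.28, the dendritic cell markers from 6.54 to 7.52 against 5.89 to 8.38, and the B cell markers from 4.55 to 9.11 against 4.59 to 7.58. The plasmacytoid marker Siglech was between 1.37 and 2.89 and the T cell marker Cd8a between 1.81 and 4.28 over the mice other than the Medium energy 14/29/57 mouse. The part of these cells in the members' differences was not tested.

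The rest of the interferon pathway was read from lists of its ligands, receptors, adaptors and other induced genes. The ligand list also held the interleukins Il12a, Il12b and Il18, which are not interferons. In the protein slope, in which 3.65% of all genes fell and 3.37% rose, 0 of 12 tested genes of the ligand list were called. Of 14 receptor and relay genes 3 fell, the kinase Jak1 (-0.08 ± 0.02, adjusted p = 0.0273, limma), the gamma receptor chain Ifngr2 (-0.10 ± 0.03, adjusted p = 0.0350) and the factor Stat3 (-0.14 ± 0.04, adjusted p = 0.0459). Of 13 sensing adaptors 2 fell, the DNA-sensing adaptor Sting1 (-0.26 ± 0.07, adjusted p = 0.0247) and the kinase Ikbke (-0.16 ± 0.05, adjusted p = 0.0385). Of 62 other interferon-induced genes 6 fell and 1 rose. Those with the smallest p were Mlkl, the executor of necroptosis (-0.21 ± 0.05, adjusted p = 0.0161), Rnf213, a large ubiquitin ligase (-0.19 ± 0.05, adjusted p = 0.0249), the nucleic acid sensor Zbp1 (-0.20 ± 0.06, adjusted p = 0.0266) and Lgals3bp, a secreted glycoprotein (-0.14 ± 0.04, adjusted p = 0.0342), and the gene that rose was Apol9b (0.17 ± 0.05, adjusted p = 0.0388). In the fit with the interquartile range 0 genes of these 4 lists were called.

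At 5% protein the same lists are read beside the 18.4% of all genes that were higher and the 11.6% that were lower, and the lists were not tested against each other. Of the 12 genes of the ligand list 4 were lower and 0 higher. The interferons among them were Ifnl3, an interferon lambda (-0.85 ± 0.25, adjusted p = 0.0133, limma), and Ifna14 (-0.54 ± 0.21, adjusted p = 0.0456). The others were the interleukins Il12a (-0.27 ± 0.08, adjusted p = 0.0165) and Il18 (-0.35 ± 0.13, adjusted p = 0.0428). Of the 14 receptor and relay genes 8 were higher, with Jak1 (0.44 ± 0.09, adjusted p = 0.00113), Stat3 (0.70 ± 0.16, adjusted p = 0.00301) and Jak2 (0.60 ± 0.16, adjusted p = 0.00726) having the smallest p, and 1 was lower. The lower one was Socs1, the inhibitor of Jak kinases (-0.30 ± 0.11, adjusted p = 0.0398), named after its value was seen. Of the 13 adaptors 4 were higher, led by Sting1 (0.90 ± 0.19, adjusted p = 0.00172) and Nlrc5, the activator of class I antigen presentation (1.22 ± 0.31, adjusted p = 0.00536). Of the 62 other induced genes 23 were higher and 2 lower, and Lgals3bp (0.71 ± 0.11, adjusted p = 4.77e-05), the guanylate-binding Gbp9 (0.88 ± 0.19, adjusted p = 0.00168), Ifi205 (1.08 ± 0.23, adjusted p = 0.00205) and Slfn1 (0.60 ± 0.13, adjusted p = 0.00224) had the smallest p. Once the interquartile range was a term, 0 genes of the 4 lists were called, and the median difference was -0.13 over the ligands, 0.05 over the receptors and relay genes, -0.00 over the adaptors and 0.11 over the other induced genes.

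The exchange of carbohydrate for fat called 0 of 34 members and 0% of all genes by limma. At an unadjusted p under 0.05 there were 4 members, Xaf1, Ifit2, Tap1 and Cxcl10, beside 3.93% of all genes. The slope for 10 points of energy moved from fat to carbohydrate was -0.16 ± 0.05 for Xaf1, -0.11 ± 0.05 for Ifit2, -0.12 ± 0.06 for Tap1 and -0.12 ± 0.06 for Cxcl10, each with an adjusted p of 0.999. The slope was below 0 for 32 of the 34 members, with a median of -0.07, against 47.9% of all genes. Without the Medium energy 14/29/57 mouse, a high-fat diet, it was below 0 for 31 of 34 with a median of -0.06, and with the interquartile range as a term for 32 of 34 with a median of -0.07. The median was -0.09 over the Ifit and Oas genes and -0.10 over the gamma-type genes. Markers of Kupffer cells and macrophages had the same sign, with slopes below 0 in 11 of 11 and a median of -0.15, or -0.08 and again 11 of 11 below 0 without the Medium energy 14/29/57 mouse. Their part in the members' slopes was not tested.

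High energy was compared with Medium energy in the same model, and 0 of 34 members and 0% of all genes were called. Unadjusted p-values under 0.05 were found for 3 members, beside 8.13% of all genes. Ifi27l2b had a difference of -0.89 ± 0.29 (adjusted p = 0.439, limma), Isg20, an RNA exonuclease, -0.36 ± 0.14 (adjusted p = 0.507) and Irf7 -0.41 ± 0.18 (adjusted p = 0.569), all lower on High energy. Irf7 had lowest, median and highest levels of 5.91, 6.66 and 7.48 in the 29 High energy mice, against 6.10, 6.88 and 9.45 in the 14 Medium energy mice, whose highest was 7.38 without the 14/29/57 mouse. Without that mouse the difference was -0.21 ± 0.11 for Isg20 and -0.21 ± 0.14 for Irf7, both with an adjusted p of 0.999, and -0.96 ± 0.30 for Ifi27l2b (adjusted p = 0.691). The members divided evenly, with 17 of 34 below 0, or 18 of 34 with the interquartile range as a term, where again 0 were called.

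The calls of another version of the energy comparison depended on the 14/29/57 pair. When only the 6 compositions fed at both levels were averaged with equal weight, 6 of 34 members were lower on High energy, beside 6.97% of all genes. They were Irf7 (-0.71 ± 0.14, adjusted p = 0.000869, limma), Irf8 (-0.68 ± 0.15, adjusted p = 0.00220), Ifit2 (-0.54 ± 0.13, adjusted p = 0.00552), Oasl2 (-0.88 ± 0.23, adjusted p = 0.00917), Rsad2 (-0.47 ± 0.12, adjusted p = 0.00968) and Isg20 (-0.47 ± 0.13, adjusted p = 0.0151). With the 14/29/57 pair left out 0 of 34 were called, beside 0.0118% of all genes, and the difference was -0.35 for Irf7 (adjusted p = 0.268), -0.21 for Irf8 (adjusted p = 0.514), -0.20 for Ifit2 (adjusted p = 0.477) and -0.13 for Isg20 (adjusted p = 0.647). Rsad2 at -0.42 (adjusted p = 0.166) and Oasl2 at -0.68 (adjusted p = 0.2003) moved less while their calls were lost. This version was not fitted with the interquartile range.

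Low was compared with High energy at 60/20/20, where each level had 3 mice, and again 0 of 34 members and 0% of all genes were called, although 4 members had an unadjusted p under 0.05, beside 10.1% of all genes. Ifit1 had 2.86, 3.33 and 3.37 on Low energy, against 4.52, 4.54 and 4.66 on High energy, a difference of -1.38 ± 0.39 (adjusted p = 0.304, limma). Tap1 had 4.69, 4.90 and 5.20 on Low energy, against 6.01, 6.19 and 6.26 on High energy, a difference of -1.22 ± 0.38 (adjusted p = 0.361). In both genes all Low energy mice were below all High energy mice, by more than the spread within either trio. Irf9 had 5.61, 6.02 and 6.05 on Low energy, against 6.54, 6.56 and 6.57 on High energy, a difference of -0.66 ± 0.23 (adjusted p = 0.408). Rtp4, an interferon-induced receptor chaperone, had 5.26, 5.94 and 5.98 on Low energy, against 6.26, 6.36 and 6.64 on High energy, a difference of -0.70 ± 0.29 (adjusted p = 0.441).

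The 2 trios did not overlap for 8 of the 34 members. In 7 the Low energy mice were lower (Ifit1, Oasl2, Rsad2, Rtp4, Irf9, Gbp7 and Tap1), beside 7.25% of all genes. In 1, Ifit3, they were higher, with 3.92, 4.18 and 4.40 on Low energy against 3.85, 3.87 and 3.90 on High energy, beside 5.61% of all genes. The difference was below 0 for 25 of 34 members with a median of -0.31, against -0.03 over all genes, and the median was -0.16 with the interquartile range as a term. That range was 3.03 ± 0.16 on Low energy, against 3.28 ± 0.16 on High energy (SD, n = 3 each). Kupffer and macrophage markers summed to 9.30 to 10.24 on Low energy, against 9.88 to 9.93 on High energy, and monocyte and neutrophil markers to 4.73 to 5.64 against 4.25 to 4.71. Their part in the difference was not tested.

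The Medium energy 14/29/57 mouse was the highest of 48 in 13 of the 34 tested members (38.2%) and the lowest in none, against 15.7% of all genes in which it was the highest and 11.6% in which it was the lowest. The largest excess was in Irf8, at 7.81, against lowest, median and highest levels of 3.53, 4.39 and 5.66 in the other 47 mice. Irf7 was at 9.45, against 5.89, 6.72 and 7.48. Both factors thus stood about as far above the highest other mouse as the others spread among themselves. Oas2 was at 5.96, against 1.88, 3.12 and 4.98, and Oasl2 at 6.25, against 1.95, 3.95 and 5.29. Oas3, a further oligoadenylate synthetase, was at 4.69, against 1.84, 2.41 and 2.85, and Ifit2 at 4.40, against 1.53, 2.16 and 3.29. Of these 4 genes Oas3 lay farthest above the highest other mouse, by 1.83 log2 units.

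Isg20 was at 7.77 in the Medium energy 14/29/57 mouse, against 5.06, 5.71 and 6.83 in the other 47, Gbp7 at 8.38, against 4.97, 6.39 and 7.71, and Tap1 at 7.59, against 4.69, 6.01 and 7.28. Rtp4 was at 7.85, against 4.94, 6.32 and 7.51, Dhx58 at 6.28, against 4.45, 5.13 and 5.83, Rsad2 at 5.36, against 3.19, 4.28 and 5.19, and Ifi35 at 6.80, against 5.68, 6.20 and 6.67. In these 7 genes the mouse lay above the highest other mouse by 0.13 to 0.94 log2 units. Mx1 and Trim30a, below the filter, were also highest in it, Mx1 at 2.21 against a highest of 2.09 and Trim30a at 3.86 against 2.11. In the 4 High energy mice of the same composition Irf8 was 4.08, 4.66, 5.05 and 5.30, and Irf7 was 6.14, 7.04, 7.16 and 7.48. One of them (replicate 4) had the next highest mean over centred members of the 48 mice, at 0.73 against 0.95 in the Medium energy 14/29/57 mouse, and the combination averaged 0.32 ± 0.30 (SD, n = 4), the highest of those with more than 1 mouse.

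Other members were not raised in the Medium energy 14/29/57 mouse. Iigp1 was at 9.50 and was the third lowest of 48, Stat2 was at 6.07 against a median of 6.68, Irgm2 at 6.15 against 6.63, and Ifit3 at 3.60 against 3.94. Among the Ifit and Oas genes 4 of 7 were highest in this mouse, with a median excess over the other mice of 2.24 log2 units. Among the gamma-type genes 1 of 6, Gbp7, was highest, with a median excess of 0.28. This mouse also had the highest macrophage and monocyte markers, and the highest level of 6 of 10 T and NK cell markers. Its cell content and its expression per cell therefore cannot be told apart.

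**Figure D4:**
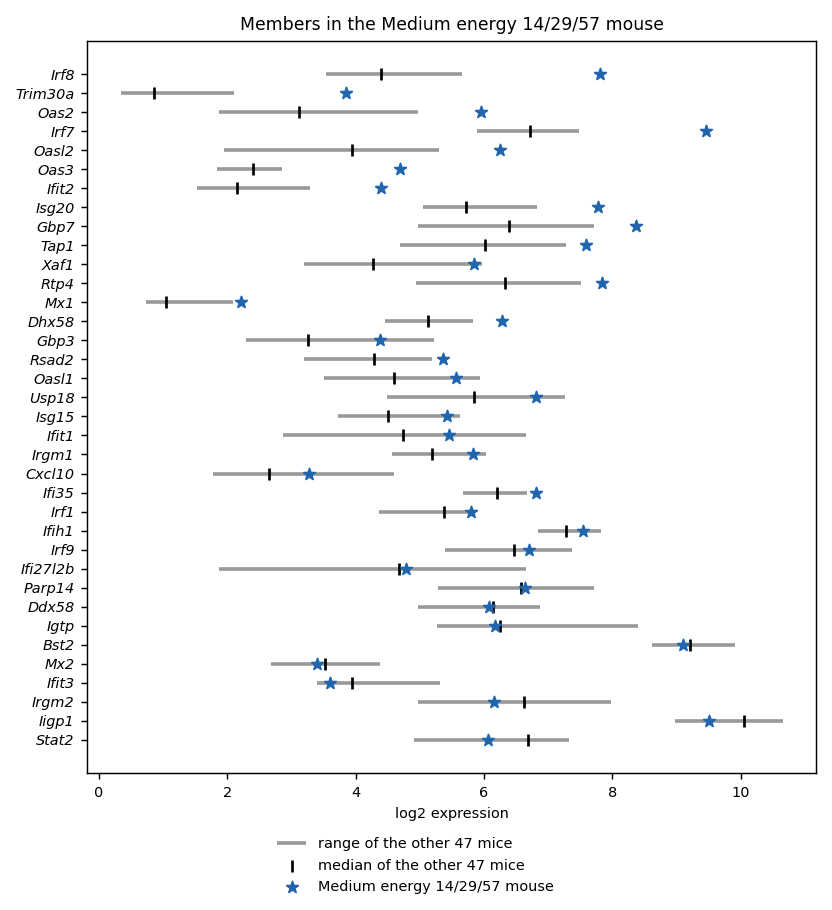
Log2 expression (horizontal axis) of the 36 measured members in the Medium energy 14/29/57 mouse (star), with the range (grey bar) and median (tick) of the other 47 mice. Members are ordered by the excess over that median, from 3.42 for Irf8 at the top to -0.62 for Stat2 at the bottom.

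Over the 47 other mice the members varied together only in part. Pearson's r between pairs of the 34 tested members had a median of 0.32 over 561 pairs, a description of mice that share diets and array spread. The median was 0.55 over the 15 gamma-type pairs, 0.24 over the 21 Ifit and Oas pairs, and 0.29 over the 42 pairs of 1 of each. With the Medium energy 14/29/57 mouse included these were 0.53, 0.32 and 0.36. The closest pairs were Ifit1 with Rtp4 and Irgm2 with Igtp, both at 0.80, and Parp14 with Ddx58, Parp14 with Stat2 and Oasl2 with Oas2, all at 0.78. Irgm2 and Igtp are the neighbours with the shared GAS and ISRE spacing shown above, whereas Rtp4, Parp14 and Oas2 had no promoter window. A link between the promoter letters and r was not tested. Ifit3 ran against the rest, with a median r of -0.16 and -0.47 with Stat2.

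A mean per mouse over centred log2 levels was taken for both classes. The Ifit and Oas mean was 0.26 ± 0.28 on 5% protein (SD, n = 10), 0.25 ± 0.62 on 14% (n = 9), -0.20 ± 0.30 on 23% (n = 9), -0.16 ± 0.27 on 33% (n = 9), 0.13 ± 0.15 on 42% (n = 5) and -0.36 ± 0.25 on 60% (n = 6). The gamma-type mean was 0.26 ± 0.38, 0.09 ± 0.38, -0.20 ± 0.29, -0.17 ± 0.54, 0.17 ± 0.56 and -0.16 ± 0.19 on the same shares. Neither mean fell evenly, since both were higher on 42% than on 33% or 60% protein. The Y-linked level was above that of Xist, as in male mice, in 6 of 10 mice on 5%, 5 of 9 on 14% and 3 of 9 on 23%. The same held for 5 of 9 mice on 33%, 1 of 5 on 42% and 4 of 6 on 60%. The part of this level in the means was not tested. With the Y-linked minus Xist level as a term the protein slope called 4 members. Without the Medium energy 14/29/57 mouse the means on 14% protein were 0.08 ± 0.42 for the Ifit and Oas genes and 0.05 ± 0.38 for the gamma-type genes (SD, n = 8).

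Single diets departed from these shares. High energy 33/20/47 had the highest gamma-type mean of any combination, at 0.59 ± 0.18 (SD, n = 2), while Medium energy 33/20/47 had the lowest with more than 1 mouse, at -0.54 ± 0.06 (SD, n = 3). The Ifit and Oas means on these diets were 0.08 ± 0.28 and -0.41 ± 0.12. Low energy 60/20/20 had an Ifit and Oas mean of -0.55 ± 0.16 (SD, n = 3), against -0.16 ± 0.10 on High energy 60/20/20 (SD, n = 3). The Y-linked level was above that of Xist in 0 of the 2 High energy and 2 of the 3 Medium energy 33/20/47 mice. The difference between energy levels on 33/20/47 was seen in the values and was not tested.

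**Figure D5:**
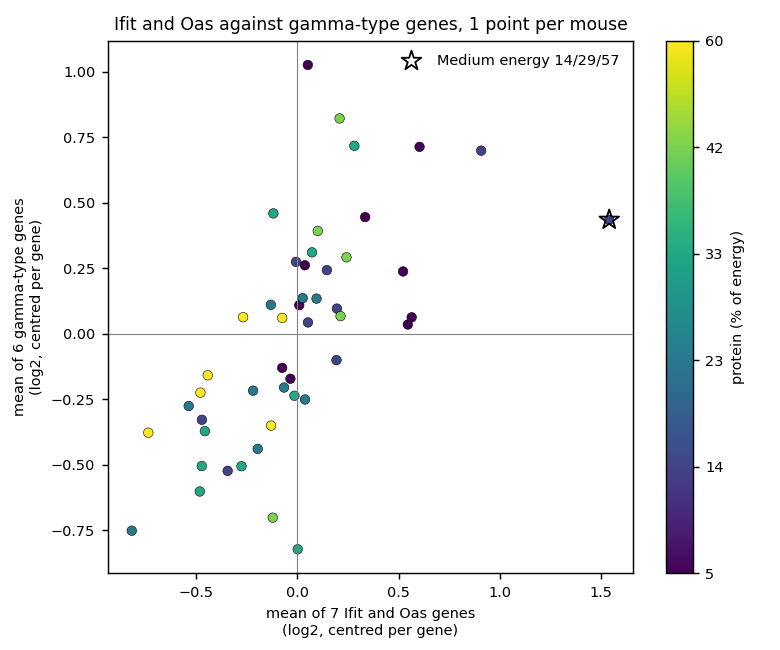
Mean of the 6 gamma-type genes (vertical axis) against the mean of the 7 Ifit and Oas genes (horizontal axis) in each of the 48 mice, as log2 levels centred per gene and coloured by the percent of energy from protein. The Medium energy 14/29/57 mouse (outlined star) lies farthest to the right at 1.54, with a gamma-type mean of 0.44 that other mice exceed.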

How the data were processed

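Total RNA from 48 mouse livers was hybridised to Affymetrix expression arrays, 1 array per mouse. The authors deposited 1 value for each of 41345 probe sets, read here as log2 expression from their range of -0.51 to 13.42. The scale is not stated in the labels, and the background correction, normalization and software are not given in the sources used here. No further normalization was applied. Precision is limited by the number of arrays.

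Genes were named from the platform annotation, using probe sets with 1 symbol. Each gene was its probe set with the highest mean (22180 genes). Tests covered the 16926 genes whose mean exceeded 1.17, the 30th percentile over probe sets. The fits used limma 3.58.1 under R 4.3.3, with a mean-variance trend. Protein share, carbohydrate-for-fat exchange and energy level were the terms of one model. The contrasts at 60/20/20 and at 5% protein came from a second model, in which all 20 combinations had their own mean. P-values are two-sided and were adjusted over all genes tested by the Benjamini-Hochberg method, with calls at 0.05. Where labels name no cage, p-values measure the spread between mice, which may share cages. The models were also run on simulated arrays in which genes varied independently. These held no difference in array spread and no shared cages, so they say nothing about the effect of either.

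The members, lists, alternatives and naming rule were chosen with earlier results of these data known. Members past the threshold in any comparison were given in full, grouped by role, with up to 4 called genes of each other pathway list, ranked by p. Where a role had none, the members with the smallest p in the protein slope were given. Marker levels of a cell type are log2 of the summed linear values. Other settings varied the scaling, the covariates, the mice, the filter and the choice of probe set. Those chosen after seeing the data were the fit without 5% protein and each 5% diet alone. Promoter windows were RefSeq's on GRCm38.p6. The genome build behind the probe sets is not given in the sources used here.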

Additional observations from a re-analysis of the deposited data

Results flagged for a closer look

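In groups of 4 mice, Dixon's test asks whether 1 mouse lies far from its group. It was run for the 36 members in the 3 combinations with 4 mice, 108 groups in all, and marked 5 (4.63%). Chance marks about 1 in 20 groups. On High energy 14/29/57 the same mouse was highest for Ifit1, at 6.06 against 5.23 to 5.33 in the others, and for Parp14, at 7.71 against 6.57 to 6.71. On High energy 5/48/48 1 mouse was lowest for Parp14, at 6.71 against 7.02 to 7.08. On High energy 5/75/20 1 mouse was highest for Dhx58, at 5.39 against 4.83 to 4.90, and another was highest for Stat2, at 6.86 against 6.56 to 6.60. The High energy 14/29/57 mouse was also the highest of 48 in 5 of the 34 tested members. The share over all genes was not counted for that mouse, so the count is not read as particular to the members.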

How the results depend on the processing

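No paired analysis was possible because the labels give each mouse a number of its own and none that is shared across diets. These numbers fall into 2 runs, and a term for numbers over 300 gave 8 members called in the protein slope and 11 at 5% protein. The count of members called in the protein slope was 6, and 2 with the interquartile range as a term, also without the Medium energy 14/29/57 mouse, 3 on High energy diets alone, 1 with the diet combination as a random block, and 0 on 14% protein or more. Leaving out each mouse gave 1 to 8. It was 1 without High energy 5/20/75 replicate 1 or 2, 5/48/48 replicate 1 or 3, 42/29/29 replicate 1 or 60/20/20 replicate 3. It was 2 or 3 without High energy 33/20/47 replicate 1, 33/47/20 replicate 2, 5/75/20 replicate 3 or 5/48/48 replicate 4, Medium energy 14/29/57 or 14/57/29 replicate 1, or Low energy 60/20/20 replicate 2 or 3 or 23/38/38. Left-out mice ended the call of Ifi27l2b in 0 of 48 fits, Iigp1 in 10, Oas2 and Oasl2 in 14, Parp14 in 18 and Ifit2 in 33. At 5% protein the count was 13, and 0 with the interquartile range, with or without that mouse, where Ddx58 turned to -0.037. It was 0, 7 and 0 for 5/20/75, 5/48/48 and 5/75/20 alone, and 5 to 14 with mice left out, the lowest without High energy 5/20/75 replicate 2, then 6 without High energy 42/29/29. Arrays centred on their medians gave 15 and quantile normalization 10, with Ifit3 lower. High against Medium energy gave 0, and 6 over the compositions fed at both levels. Over all genes the protein slope called 1187, against 113 with the interquartile range, 195 without that mouse as well, 630 with the random block, 3652 with log2 of the protein share and 14 on 14% protein or more. The remaining alternatives stayed within 1.5 times of these counts, and the causes of the changes were not tested. Members near the low end, such as Ifit2 and Oas3, are limited by signal over background.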

Other observations

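The interferon receptor and relay list was highest in the Medium energy 14/29/57 mouse in 9 of 14 tested genes (Ifnar2, Ifngr1, Ifngr2, Il10rb, Jak1, Pias1, Ptpn2, Ptpn6 and Socs3), and the other interferon-induced genes in 33 of 62, among them Ifi204, Gbp5, Psmb8 and B2m, all named after their values were seen. Of the 12 genes of the ligand list 1, the interleukin Il18, was highest in it. Over all genes tested the share was 15.7%. The High energy 42/29/29 mouse was alone on its diet, and its array had the smallest interquartile range, 2.78. It was the lowest of 48 in 6 of the 34 tested members and the highest in 1, Ifit3. The share over all genes was not counted for this mouse, so these counts are not read as particular to the members.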
